A study of Homo sapiens with 9 samples.

Results

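ULBP1, ULBP2, ULBP3, MICA and MICB encode human ligands of NKG2D, and their transcripts were followed in HEK293T cells that had been given a fluorogenic RNA ligand. They were 5 of the 57500 genes in the deposited count files. ULBP1 was taken up because its transcript had an adjusted p under 0.05 together with a log2 fold change over 1 when MsOc3HBC-treated cells were set against DMSO-treated cells. ULBP1 lay inside these limits at 1.65 on the log2 scale, and the next ligand, ULBP2, lay outside at 0.21. Its values are therefore given as a description with intervals and without a test, also in the comparisons that share libraries with that one. ULBP2, ULBP3, MICA and MICB were added as its family, and the remaining human members RAET1E, RAET1G and RAET1L are given beside them. HEK293T is an established human embryonic kidney cell line that carries the SV40 large T antigen. Cells were incubated for 5 h with 10 µM HBC530, with 10 µM MsOc3HBC or with the solvent DMSO. HBC530 binds the Pepper aptamer without forming a bond, while MsOc3HBC has the same HBC scaffold with a mesylate on a propyl linker that can alkylate the aptamer. Each treatment had 3 biological replicates, all of the same cell line, and poly(A) RNA was sequenced.

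NKG2D is an activating receptor on natural killer cells and cytotoxic T cells, and it recognizes proteins that healthy cells display sparingly and that stressed, infected or transformed cells display in larger amounts. Its ligands resemble MHC class I molecules. The ULBP proteins lack the membrane-proximal domain and are mostly held by a glycosylphosphatidylinositol (GPI) anchor, whereas MICA and MICB span the membrane. Binding of ligand-bearing cells can trigger killing, and proteases can shed the ligands from the surface. ULBP1 is known as a gene that the stress-responsive transcription factor ATF4 switches on and whose transcript the splicing factor RBM4 helps to process.

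The 9 libraries held between 28056929 and 62205366 counts on genes. Levels are given as counts per 1000000 counts (CPM) after scaling by the trimmed mean of M values (TMM), with the mean ± SD over the 3 libraries of a treatment. Replicate 3 of HBC530 and replicate 3 of MsOc3HBC stood apart from the other 7 libraries. They lay at 36.9 and 48.8 on the first principal component, against -20.3 to -4.28 for the others. All 8 markers of HEK293 cells were at 1 CPM or more in at least 1 library, with a summed level of 715 to 848 CPM. All 12 NK and T lymphocyte markers, among them KLRK1, which encodes NKG2D itself, stayed under 1 CPM in every library, as did 4 of 4 macrophage and 3 of 3 endothelial markers. The summed level of the macrophage markers was 0.742 to 1.00 CPM with DMSO, 0.743 to 0.849 CPM with HBC530 and 1.03 to 1.38 CPM with MsOc3HBC, and its part in the results was not tested. Treatments were compared with edgeR's quasi-likelihood test, and p-values were adjusted with the Benjamini-Hochberg method over all genes of a comparison.

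The ULBP genes lie together on chromosome 6 (GRCh38). ULBP1 spans chr6:149964007-149973710 on the plus strand, with 5 exons of 3142 bases in all. ULBP2 spans chr6:149942000-149949235 on the plus strand and ULBP3 chr6:150063150-150069095 on the minus strand. MICA (chr6:31399784-31415315) and MICB (chr6:31494881-31511124) lie within the MHC region of the same chromosome. The RefSeq promoter windows (GRCh38.p14, 250 bases before to 50 bases after the gene start) of the ULBP genes are shown because the 3 genes are neighbours. Of the 3, ULBP1 had the lowest level and the largest log2 fold change for MsOc3HBC against DMSO. The window of CHAC1 is shown because this glutathione-degrading enzyme is a known ATF4 target. The windows are chr6:149963693-149963992 for ULBP1, chr6:149941764-149942063 for ULBP2 and chr15:40953221-40953520 for CHAC1, all on the plus strand, and chr6:150069072-150069371 on the minus strand for ULBP3. Capitals mark GC boxes (GGGCGG, either strand) and the C/EBP-ATF element core (TGATGCAA, either strand).
ULBP1: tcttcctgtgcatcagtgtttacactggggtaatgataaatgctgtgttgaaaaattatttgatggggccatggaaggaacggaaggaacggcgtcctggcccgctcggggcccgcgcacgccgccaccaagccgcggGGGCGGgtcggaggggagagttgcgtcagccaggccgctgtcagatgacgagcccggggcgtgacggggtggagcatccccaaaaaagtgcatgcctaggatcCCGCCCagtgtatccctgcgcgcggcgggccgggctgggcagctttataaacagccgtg
ULBP2: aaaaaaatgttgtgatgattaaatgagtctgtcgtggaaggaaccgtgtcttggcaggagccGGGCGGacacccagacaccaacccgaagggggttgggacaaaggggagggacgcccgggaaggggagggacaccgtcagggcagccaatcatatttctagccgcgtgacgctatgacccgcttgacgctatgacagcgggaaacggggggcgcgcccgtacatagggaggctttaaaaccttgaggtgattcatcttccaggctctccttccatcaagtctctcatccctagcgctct
ULBP3: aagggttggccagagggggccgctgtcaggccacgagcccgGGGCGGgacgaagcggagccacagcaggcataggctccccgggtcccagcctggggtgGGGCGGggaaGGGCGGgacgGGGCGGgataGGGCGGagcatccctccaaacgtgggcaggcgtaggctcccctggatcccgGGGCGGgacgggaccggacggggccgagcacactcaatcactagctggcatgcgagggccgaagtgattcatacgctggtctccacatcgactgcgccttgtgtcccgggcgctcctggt
CHAC1: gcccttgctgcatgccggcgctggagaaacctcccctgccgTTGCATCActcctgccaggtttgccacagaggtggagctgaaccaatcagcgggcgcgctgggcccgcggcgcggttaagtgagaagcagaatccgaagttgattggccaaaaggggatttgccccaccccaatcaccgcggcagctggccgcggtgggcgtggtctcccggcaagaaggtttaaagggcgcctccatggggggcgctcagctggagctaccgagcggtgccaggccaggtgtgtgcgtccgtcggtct

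The ULBP1 window held 2 GC boxes, that of ULBP2 held 1 and that of ULBP3 held 6. The GC content of these windows was 62.7, 56.7 and 70.7%, respectively. A GC box was present in 45% of the 35116 RefSeq windows. The ATF element core TGATGCAA, which 0.866% of all windows held, was in none of the windows of the NKG2D ligand genes. Of the 23 ATF4 target genes with a window, 3 held it (CEBPG, CHAC1 and JDP2). Here a gene counted if any of its windows held the core, whereas the percentage is a share of single windows. The cAMP response element TGACGTCA (1.85% of all windows) was in none of the ligand windows either. The looser core TGANNCA, which can overlap TGATGCAA, was in the windows of ULBP1, ULBP2 and ULBP3 and in 37.3% of all windows. These are matches of letters in a short window and say nothing of binding.

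The windows of MICA and MICB held a GC box, as did those of ULBP1, ULBP2 and ULBP3, and differed in other matches. Both windows held CCAAT, found in 34.6% of all windows, as did that of ULBP2. Both also held a pair of inverted heat shock half-sites (GAANNTTC, 6.77% of all windows), which no ULBP window held. The RefSeq starts of both genes lie inside the spans given above. The stretches around the pair are shown to compare the paralogs, with the pair in capitals, at chr6:31403444-31403483 for MICA and chr6:31497990-31498029 for MICB (GRCh38.p14, plus strand).
MICA: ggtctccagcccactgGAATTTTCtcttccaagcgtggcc
MICB: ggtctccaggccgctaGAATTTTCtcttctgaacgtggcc

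The family members are related in sequence, which bears on how reads are assigned. Of the 50-base words in their annotated transcripts, 8.13% of those of ULBP1 also occurred in another gene, mostly in the nearby pseudogene RAET1K. The share was 32.6% for ULBP2, mostly with RAET1L, 12.1% for ULBP3, 3.17% for MICA and 3.15% for MICB. Only unique hits were counted, so reads of such stretches may be missing or placed on the relative. Exons of MICA shared 62 bases with HCP5, and those of RAET1G shared 138 bases with an antisense gene, while ULBP1, ULBP2, ULBP3 and MICB overlapped no other annotated exon.

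The 5 ligands differed widely in transcript level. Divided by the exonic length deposited with the counts, their mean level over the 9 libraries was 9.10 CPM per kilobase for ULBP3, 6.26 for MICA, 4.93 for ULBP2, 1.84 for MICB and 0.420 for ULBP1. The same order was found with library totals in place of TMM and with TPM values. ULBP3 (5.93 to 10.5 CPM per kilobase) overlapped MICA (5.75 to 7.22), and MICA overlapped ULBP2 (3.996 to 6.01), so the ranges of these neighbours were not separated. Within a library MICA was above ULBP2 in 9 of 9 libraries and ULBP3 above MICA in 8 of 9. MICB (1.64 to 1.98) lay below ULBP2 in all libraries, and ULBP1 (0.168 to 0.862) lay below MICB in all libraries. The order of ULBP3, MICA and ULBP2 rested on the lengths used. The deposited length of ULBP3 was 988 bases, whereas its transcripts in the reference annotation held 3062 distinct 50-base words, and for MICA these numbers were 2386 and 4038. Per 1000 such words the mean level was 5.17 CPM for ULBP2, 3.70 for MICA, 2.94 for ULBP3, 1.85 for MICB and 0.417 for ULBP1, and MICA was above ULBP2 in 0 of 9 libraries. This second length was chosen after the data had been seen, and ULBP3 and ULBP2 exchanged places under it while ULBP1 stayed lowest. RAET1G, a ULBP relative, was at 0.742 to 1.16 CPM per kilobase. With DMSO its libraries (0.742 to 1.12) were all above those of ULBP1 (0.168 to 0.278), whereas with MsOc3HBC the ranges of RAET1G (0.850 to 1.16) and ULBP1 (0.523 to 0.862) overlapped.

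**Figure D1:**
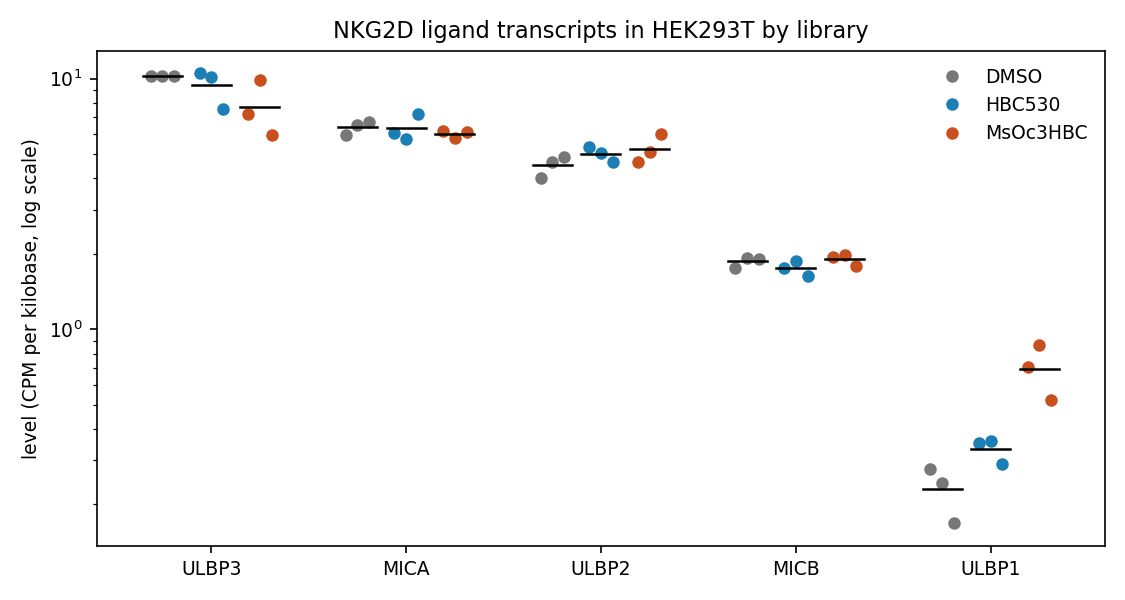
Level of the 5 NKG2D ligand transcripts in CPM per kilobase of exon on a log axis, with a point for each library in the order of replicates 1 to 3, coloured by treatment, and a line at the mean. ULBP1 lies lowest, and its MsOc3HBC libraries (0.523 to 0.862) are all above its DMSO libraries (0.168 to 0.278), whereas the points of the other genes stay close together or, for ULBP3, scatter downwards.

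With the deposited lengths, the sum of the 5 levels was 23.3 ± 0.875 CPM per kilobase with DMSO, 22.8 ± 1.38 with HBC530 and 21.6 ± 1.81 with MsOc3HBC (SD, n = 3 each). ULBP3 made up 44.1 ± 1.70% of it with DMSO, 41.0 ± 4.82% with HBC530 and 35.3 ± 6.37% with MsOc3HBC. ULBP1 made up 0.996 ± 0.274%, 1.46 ± 0.0935% and 3.21 ± 0.570%. In this sum ULBP1 thus remained the smallest share in every treatment.

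ULBP1, a GPI-anchored ligand, stood out among the 5 genes with MsOc3HBC. Its raw counts were 40, 46 and 33 in DMSO replicates 1 to 3, 58, 65 and 30 with HBC530, and 99, 148 and 44 with MsOc3HBC. In CPM, the DMSO libraries were at 0.873, 0.768 and 0.529, the HBC530 libraries at 1.10, 1.12 and 0.910, and the MsOc3HBC libraries at 2.22, 2.71 and 1.64. Every HBC530 library was above every DMSO library, and every MsOc3HBC library was above every HBC530 library. The former held with TMM factors alone, since with library totals HBC530 replicate 3 was at 0.858 CPM and DMSO replicate 1 at 0.880 CPM, and TPM values overlapped too. The latter held on all 3 scales. Such counts are small, and counting error alone gave an exact Poisson 95% interval of 0.364 to 0.743 CPM for DMSO replicate 3 and of 1.19 to 2.21 CPM for MsOc3HBC replicate 3. Because cells were measured in bulk, a change in the number of cells with the transcript and a change in its amount per cell cannot be told apart.

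The mean level of ULBP1 was 0.723 ± 0.176 CPM with DMSO and 2.19 ± 0.533 CPM with MsOc3HBC (SD, n = 3 each). The log2 fold change was 1.65 (SE 0.237, 95% confidence interval 1.13 to 2.17), or 3.13-fold (2.18 to 4.49). Of the 17514 genes tested, 27 (0.154%) had an adjusted p under 0.05 and 9 (0.0514%) also passed a log2 fold change of 1. ULBP1 was among the 9 by the way it was chosen, and 1 of the 5 ligands was called, higher, where 0.0799% of all genes were called higher and 0.0742% lower. Leaving out 1 library at a time gave log2 fold changes of 1.45 to 1.79. ULBP1 passed the adjusted p in 1 of these 6 fits, the one without MsOc3HBC replicate 3, and 0 of the 5 ligands were called in each of the other 5 fits. Only 6 of the tested genes had a larger log2 fold change, and 2 of them were called.

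HBC530 gave a smaller difference. ULBP1 was at 1.05 ± 0.119 CPM (SD, n = 3), a log2 fold change against DMSO of 0.57 (SE 0.219, 95% confidence interval 0.08 to 1.05), or 1.48-fold. The fits with 1 library left out gave 0.38 to 0.71. Of the 17684 genes tested, 3 (0.017%) were called and 2 (0.0113%) also passed a log2 fold change of 1, and 0 of the 5 ligands were among them. With ULBP1 set aside, 0 of the other 4 ligands had an unadjusted p under 0.05, against 5.07% of all genes, and DESeq2 called 0 of the 5. The groups did not overlap for 1 of the 5 ligands, ULBP1, against 7.17% of all genes higher and 6.64% lower, and with library totals or TPM values this count was 0.

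The related compounds were compared directly at the same dose and time, in 1 pair. ULBP1 was higher with MsOc3HBC, which bears the reactive handle, than with HBC530 by 1.08 on the log2 scale (SE 0.213, 95% confidence interval 0.59 to 1.57), or 2.11-fold. The fits with 1 library left out gave 0.89 to 1.23. No gene of 17397 (0%) passed the adjusted p with edgeR, while 1274 (7.32%) had an unadjusted p under 0.05 and DESeq2 called 24. Hence 0 of the 5 ligands were called, and for 1 of them, ULBP1, the groups did not overlap, against 6.85% of all genes higher and 8.5% lower. Deviations of same-numbered libraries of the compounds correlated at 0.167, 0.368 and 0.433. The labels state no pairing, and the part of the replicate 3 libraries, which stood apart, in these correlations was not tested. In a fit that blocked on the replicate number the value for ULBP1 was again 1.08, and without replicate 3 of both compounds it was 1.14. The blocked fit called 4.54% of all genes higher and 6.9% lower, and the fit without replicate 3 called 3.16% and 6%. Of the 4 ligands other than ULBP1, 0 were called in either fit, with 1 at an unadjusted p under 0.05 in each.

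**Figure D2:**
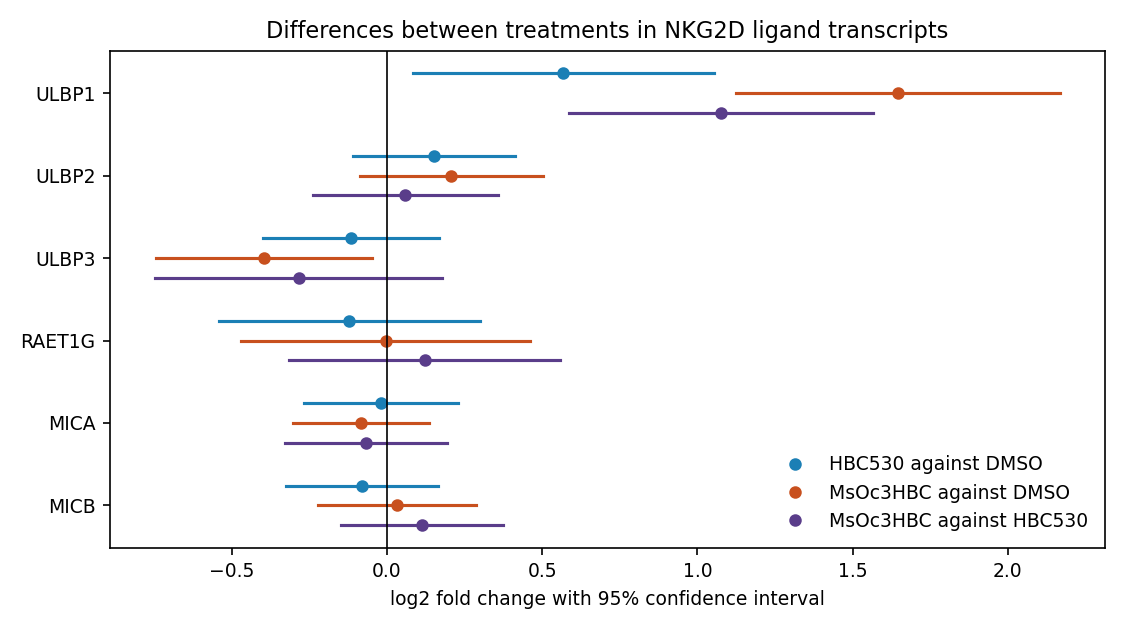
Log2 fold change (points) with 95% confidence interval (lines) of the 5 ligands and RAET1G in the 3 comparisons, each 3 libraries against 3, with a vertical line at no change. The intervals of ULBP1 lie to the right of 0 in all 3 comparisons, that of ULBP3 lies to the left for MsOc3HBC against DMSO (-0.75 to -0.05), and those of the other genes include 0.

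ULBP2, the nearest neighbour of ULBP1 among the ligand genes, changed little. Its libraries were at 5.39, 6.29 and 6.59 CPM with DMSO, 7.22, 6.81 and 6.25 CPM with HBC530, and 6.26, 6.88 and 8.10 CPM with MsOc3HBC. All groups overlapped. The log2 fold change was 0.21 (95% confidence interval -0.09 to 0.50, edgeR adjusted p = 0.591) for MsOc3HBC against DMSO and 0.15 (-0.11 to 0.41, adjusted p = 0.751) for HBC530 against DMSO. Between the compounds it was 0.06 (-0.24 to 0.36, adjusted p = 0.948). A p that misses the threshold does not show that the compounds act alike, and the interval is the range of differences that these libraries allow.

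ULBP3, a further GPI-anchored ligand, was lower in CPM with MsOc3HBC than with DMSO, without passing the test. The DMSO libraries were at 10.13, 10.10 and 10.14 CPM, a coefficient of variation of 0.179%. With HBC530 they were at 10.38, 10.01 and 7.46 CPM, and with MsOc3HBC at 7.11, 9.77 and 5.86 CPM. Counting error alone gave an exact Poisson 95% interval of 9.23 to 11.1 CPM for DMSO replicate 1. For MsOc3HBC replicate 2 it was 8.96 to 10.6 CPM, which holds all 3 DMSO values. Every MsOc3HBC library was below every DMSO library, also with library totals, whereas in TPM MsOc3HBC replicate 2 (35.4) was above DMSO replicates 2 (35.1) and 3 (34.3). In both compound groups replicate 3, which stood apart, was the lowest. The log2 fold change for MsOc3HBC against DMSO was -0.40 (SE 0.158, 95% confidence interval -0.75 to -0.05) and did not pass the test (edgeR adjusted p = 0.413). It was -0.25 without MsOc3HBC replicate 3, -0.63 without replicate 2 and -0.35 without replicate 1. In this comparison 1 of the 5 ligands lay wholly above DMSO and 1, ULBP3, wholly below it, against 9.35% of all genes above and 8.96% below. In TPM the 1 below was MICA, against 7.16% of all genes above and 8.96% below. Against DMSO the value of HBC530 was -0.12 (-0.40 to 0.17, adjusted p = 0.795), and it was 0.02 without HBC530 replicate 3. Between the compounds it was -0.28 (-0.75 to 0.18, adjusted p = 0.79999).

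MICA and MICB, the membrane-spanning ligands, were at similar levels in the 3 treatments. MICA was at 14.3, 15.5 and 16.02 CPM with DMSO, 14.4, 13.7 and 17.2 CPM with HBC530, and 14.7, 13.9 and 14.6 CPM with MsOc3HBC. MICB was at 4.93, 5.41 and 5.32 CPM with DMSO, 4.93, 5.26 and 4.58 CPM with HBC530, and 5.43, 5.53 and 5.00 CPM with MsOc3HBC. In CPM the groups overlapped for both genes in all 3 comparisons, also with library totals. In TPM, MICA with MsOc3HBC (18.7 to 20.8) lay wholly below DMSO (21.0 to 22.5), as did 8.96% of all genes. For MsOc3HBC against DMSO the log2 fold change was -0.09 (95% confidence interval -0.30 to 0.13, edgeR adjusted p = 0.781) for MICA and 0.03 (-0.22 to 0.29, adjusted p = 0.936) for MICB. For HBC530 against DMSO it was -0.02 (-0.27 to 0.23, adjusted p = 0.967) and -0.08 (-0.33 to 0.16, adjusted p = 0.837). Between the compounds it was -0.07 (-0.33 to 0.19, adjusted p = 0.923) and 0.11 (-0.15 to 0.37, adjusted p = 0.865).

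Over the 4 ligands other than ULBP1, the median log2 fold change was -0.03 for MsOc3HBC and -0.05 for HBC530 against DMSO, beside 0.012 and 0.0046 over all genes tested. None of the 4 passed the adjusted p with edgeR or DESeq2 in any of the 3 comparisons. At an unadjusted p under 0.05 the count was 1 for MsOc3HBC against DMSO, ULBP3, beside 10.9% of all genes, and 0 in the other comparisons, with either tool. Counting error mattered less for these genes, whose counts per library ranged from 134 to 999.

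The remaining NKG2D ligand genes were weakly expressed. RAET1G had 41 to 104 counts per library and a log2 fold change of -0.0046 (95% confidence interval -0.47 to 0.46, edgeR adjusted p = 0.995) with MsOc3HBC and of -0.12 (-0.54 to 0.30, adjusted p = 0.860) with HBC530. RAET1E had at most 3 counts and RAET1L at most 1 in any library, and neither passed the filter on low counts.

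Position had played no part in choosing ULBP1, and the genes around it were described next. Of 60 genes that start within 1 Mb, 21 were tested for MsOc3HBC against DMSO, ULBP2 and ULBP3 among them, and 0 were called with edgeR or DESeq2, with 2 at an unadjusted p under 0.05, where 10.9% of all genes had one. Their median log2 fold change was 0.06, and the estimates ranged from -0.40 for ULBP3 to 0.44. For HBC530 against DMSO 22 were tested and 0 were called with either tool, with 1 at an unadjusted p under 0.05 (5.07% of all genes) and a median of -0.0031. Between the compounds 21 were tested and 0 were called with either tool, with 0 at an unadjusted p under 0.05. The blocked fit called 3 higher with MsOc3HBC, PPIL4, LATS1 and MTHFD1L, named after their values were seen. It called 4.54% of all genes higher and 6.9% lower. The fit without replicate 3 of both compounds called 0, beside 3.16% of all genes higher and 6% lower. The next tested gene on the left was ULBP2. On the right it was RAET1K for MsOc3HBC against DMSO (log2 fold change -0.04, 95% confidence interval -0.50 to 0.42, edgeR adjusted p = 0.963). For HBC530 against DMSO it was the pseudogene BTF3P10 (0.92, 0.18 to 1.65, adjusted p = 0.751), which was at 0.271 CPM with HBC530 and 0.142 CPM with DMSO.

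**Figure D3:**
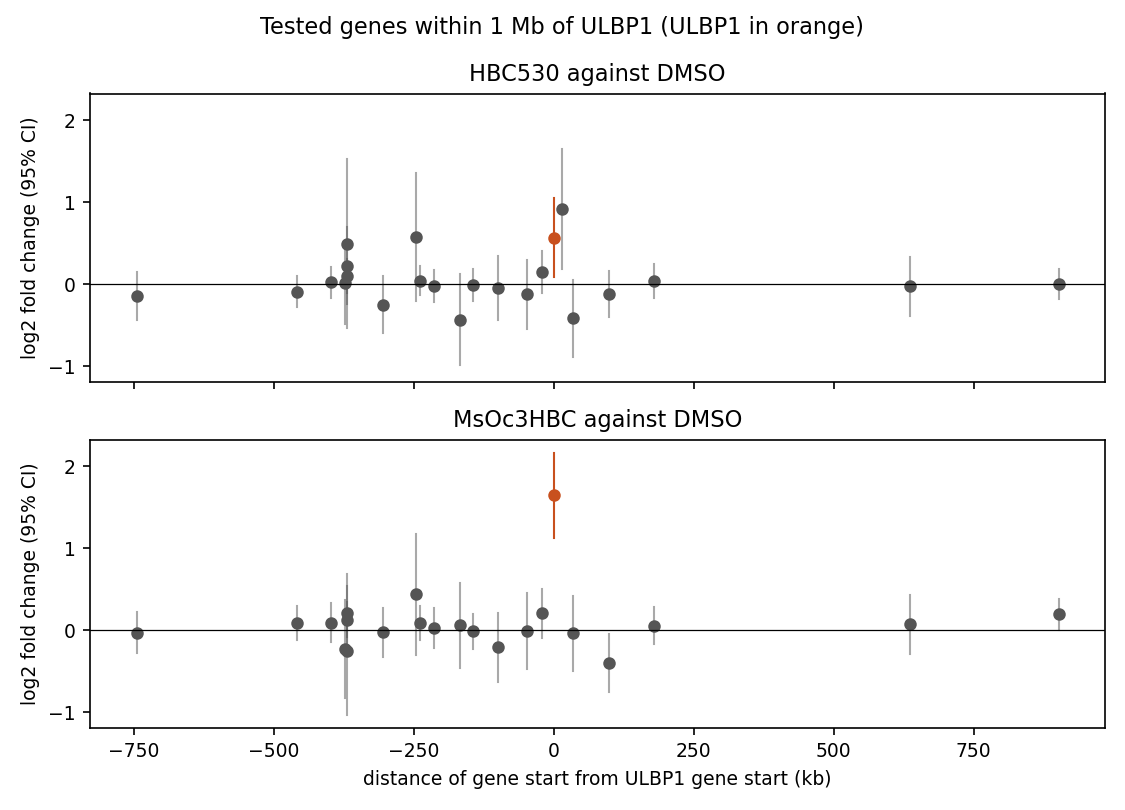
Log2 fold change with 95% confidence interval of the tested genes within 1 Mb of ULBP1 against the distance of their start from that of ULBP1 in kb, for each compound against DMSO. With MsOc3HBC, ULBP1 (orange, 1.65) lies above all 21 neighbours, which reach 0.44, whereas with HBC530 it (0.57) lies below 2 of the 22, the higher of which is BTF3P10 (0.92).

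Genes that act on NKG2D ligand proteins or that NK cells read beside them were described by list. The shedding enzymes ADAM10, ADAM17, ADAM9 and MMP14 with PDIA6, which assists MICA shedding, had a median log2 fold change of -0.06 with MsOc3HBC and -0.11 with HBC530 against DMSO. The 5 subunits of the GPI transamidase, which attaches the anchor of ULBP proteins, had medians of -0.06 and 0.09. HLA class I heavy chains, beta-2 microglobulin and the peptide loading genes, which together inhibit NK cells, had medians of 0.0076 and 0.08 over 10 tested genes. Other NK-activating ligands had medians of -0.16 over 4 tested of 7 genes and -0.0058 over 5. Of these 4 lists, 0 genes were called in any of the 3 comparisons with all libraries and no block, with edgeR or with DESeq2. At an unadjusted p under 0.05 the lists held, with edgeR, 0 genes for MsOc3HBC against DMSO, 1 for HBC530 against DMSO, a shedding enzyme, and 3 between the compounds, where 10.9, 5.07 and 7.32% of all genes had one. Between the compounds, whose libraries were treated as paired, the blocked fit called 5 genes of these lists, all named here after their values were seen. That fit called 4.54% of all genes higher and 6.9% lower. ADAM17 was higher with MsOc3HBC than with HBC530 by 0.33 on the log2 scale (edgeR adjusted p = 0.00597). It was the shedding enzyme with an unadjusted p under 0.05 above, and against DMSO it was at -0.13 with MsOc3HBC and -0.46 with HBC530. The GPI transamidase subunits GPAA1 (-0.28, adjusted p = 0.00505) and PIGT (-0.26, adjusted p = 0.0105) were lower, as were NECTIN2 (-0.23, adjusted p = 0.0106), a ligand of DNAM-1, and BAG6 (-0.20, adjusted p = 0.0158), a ligand of NKp30. Against DMSO, GPAA1 was at -0.06 with MsOc3HBC and 0.22 with HBC530, and PIGT at -0.17 and 0.09. In the same order NECTIN2 was at -0.12 and 0.11, and BAG6 at -0.20 and -0.0058. Without replicate 3 of both compounds these 5 were called in the same directions, and PIGS (-0.19, edgeR adjusted p = 0.0336) was lower too. The fit without these libraries called 3.16% of all genes higher and 6% lower.

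Among 13 known regulators of NKG2D ligand genes, 0 were called in the 3 comparisons with edgeR on all libraries without a block. At an unadjusted p under 0.05 there were 3 for MsOc3HBC against DMSO, 1 for HBC530 against DMSO and 2 between the compounds, beside 10.9, 5.07 and 7.32% of all genes. DESeq2 called 1 for MsOc3HBC against DMSO and 0 in the others. Between the compounds the blocked fit called 4 higher with MsOc3HBC and 2 lower, beside 4.54 and 6.9% of all genes. The fit without replicate 3 of both compounds called 2 higher and 2 lower, beside 3.16 and 6% of all genes. ATF4 and the DNA damage kinase ATM were higher in both fits, and HSF1 and MYC were lower in both, where ATM, HSF1 and MYC are named after their values were seen. Without MsOc3HBC replicate 3, 1 regulator, ATF4, was called higher against DMSO. ATF4, the transcription factor of the integrated stress response, was at 602, 662 and 685 CPM with DMSO, 787, 763 and 964 CPM with HBC530, and 947, 926 and 1139 CPM with MsOc3HBC. Both compound groups lay wholly above DMSO, and they overlapped each other with TMM factors but not with library totals or TPM values. With TMM factors 9.35% of all genes lay wholly above DMSO with MsOc3HBC and 7.17% with HBC530. The log2 fold change was 0.63 (95% confidence interval 0.39 to 0.88, edgeR adjusted p = 0.0728) for MsOc3HBC against DMSO, 0.37 (0.13 to 0.60, adjusted p = 0.751) for HBC530 against DMSO and 0.26 (-0.04 to 0.57, adjusted p = 0.693) between the compounds. In the blocked fit the last was 0.26 with an adjusted p of 0.00365. RBM4, which acts on ULBP1 splicing, was at 55.9, 56.7 and 53.8 CPM with DMSO, 50.9, 48.7 and 51.5 CPM with HBC530, and 46.6, 46.1 and 43.3 CPM with MsOc3HBC. These 3 groups did not overlap, except that in TPM the compound groups overlapped each other. With TMM factors 8.96% of all genes lay wholly below DMSO with MsOc3HBC and 6.64% with HBC530. Between the compounds 8.5% were wholly lower with MsOc3HBC. The log2 fold change of RBM4 against DMSO was -0.29 (-0.48 to -0.09, edgeR adjusted p = 0.312) for MsOc3HBC and -0.14 (-0.32 to 0.04, adjusted p = 0.751) for HBC530.

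Targets of ATF4 were described in the same way. Of the 26 targets, all tested, 9 were called higher and 0 lower for MsOc3HBC against DMSO, beside 0.0799% of all genes called higher. In 21 of them the groups did not overlap, all higher with MsOc3HBC, against 9.35% of all genes, and with library totals or TPM values this count was 20. The median log2 fold change was 0.52, beside 0.012 over all genes. The count was 4 without DMSO replicate 1 and 14 without MsOc3HBC replicate 3. For HBC530 against DMSO 2 were called higher, beside 0.017% of all genes, with a median of 0.18, and the groups did not overlap for 17 that were higher and 1 that was lower, against 7.17 and 6.64% of all genes. The 17 became 13 with library totals and 10 with TPM values. These comparisons share the DMSO libraries. Between the compounds 0 were called with edgeR, with 13 at an unadjusted p under 0.05, where 7.32% of all genes had one, and 7 called by DESeq2, and the median was 0.34. With the block 17 were called higher with MsOc3HBC and 1 lower, beside 4.54 and 6.9% of all genes. Without replicate 3 of both compounds 15 were called higher and 1 lower, beside 3.16 and 6% of all genes. The list was chosen with results of these data known and is no independent evidence.

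The named targets showed different steps between the treatments. CHAC1 was at 2.29, 2.39 and 2.36 CPM with DMSO, 6.89, 6.30 and 6.55 CPM with HBC530, and 13.7, 14.2 and 16.5 CPM with MsOc3HBC. SLC7A11, the cystine transporter subunit, was at 10.4, 8.72 and 8.48 CPM, 14.9, 13.8 and 11.3 CPM, and 26.1, 33.0 and 22.9 CPM in the same order. For both genes the 3 treatments did not overlap, except that SLC7A11 in TPM overlapped between HBC530 and DMSO. With MsOc3HBC against DMSO the log2 fold change was 2.65 (edgeR adjusted p = 3.7e-06) for CHAC1 and 1.58 (adjusted p = 0.00142) for SLC7A11. It was 1.61 (adjusted p = 0.000338) for JDP2, a bZIP repressor, and 0.95 (adjusted p = 0.00198) for SESN2, an inhibitor of mTORC1 signalling. With HBC530 against DMSO it was 1.49 (adjusted p = 0.00062) for CHAC1 and 0.74 (adjusted p = 0.0367) for ATF3, a bZIP factor of the stress response. ATF3 was also called with MsOc3HBC against DMSO (0.83, edgeR adjusted p = 0.00339), and in 6 of 6 fits with 1 library left out. Its call with HBC530 was lost in 5 of 6 such fits (adjusted p up to 0.334). The call of SESN2 with MsOc3HBC was lost without DMSO replicate 1 (adjusted p = 0.0526). Beside these, ULBP1 was at 1.65 with MsOc3HBC and 0.57 with HBC530.

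**Figure D4:**
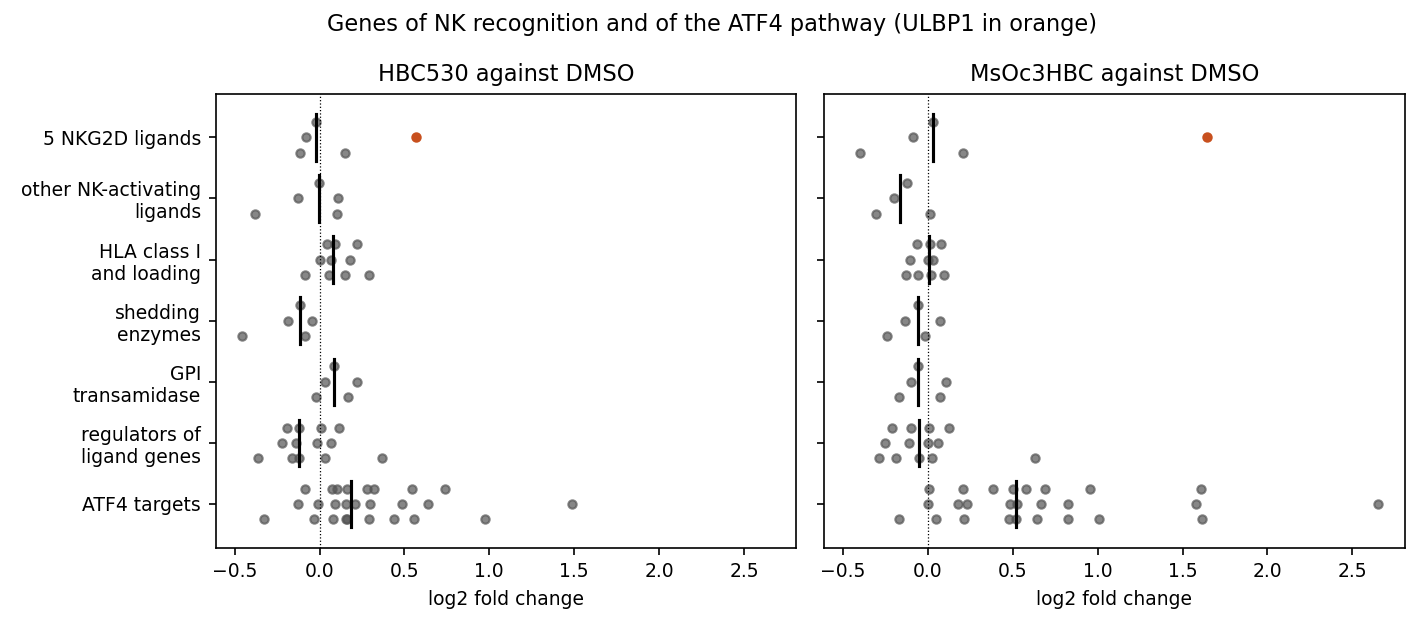
Log2 fold change of each tested gene against DMSO for HBC530 (left) and MsOc3HBC (right), grouped by list, with a black line at the median of each list and ULBP1 in orange. With MsOc3HBC the ATF4 targets have a median of 0.52 and reach 2.65, whereas the other lists have medians between -0.16 and 0.03.

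Genes were then ranked by how closely their log2 CPM followed that of ULBP1 over the 9 libraries. Pearson's r exceeded 0.9 for 33 of 18040 genes, a description over libraries that share treatment, depth and the replicate 3 libraries. The 6 closest were SLC7A11 (r = 0.980), R3HDM2 (0.973), ZFP90 (0.955), DDR2 (0.953), BCLAF3 (0.951) and SESN2 (0.943). Of these, SLC7A11 rose most, from a mean of 9.21 CPM with DMSO to 13.3 CPM with HBC530 and 27.3 CPM with MsOc3HBC, whereas BCLAF3 went from 5.09 to 5.32 and 5.96 CPM. The order of genes was loose, since 2 of the 6 were also among the 6 closest by Spearman's rho and 1 of the 6 was when both replicate 3 libraries of the compounds were left out. Of the 26 ATF4 targets, 8 were among the 100 closest of the 18040 genes. ULBP1 was chosen on its difference between these same libraries, and the target list with results known. This count is therefore no independent evidence. ATF4 itself had r = 0.678 and RBM4 r = -0.812. The other ligands did not follow ULBP1 closely, with r = 0.335 for ULBP2, 0.313 for MICB, -0.132 for RAET1G, -0.422 for ULBP3 and -0.549 for MICA.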

How the data were processed

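RNA of HEK293T cells was sequenced after 5 h with HBC530, MsOc3HBC or DMSO, 3 libraries each. The deposited files hold raw counts per gene, for which the authors used Trimmomatic 0.36 for trimming, STAR 2.5.2b for alignment (GRCh38) and featureCounts of Subread 1.5.2 for unique hits. Annotation release and strand setting are not given in the sources used here. The exonic length deposited beside the counts, treated as a score, gave levels per kilobase. The signal columns that the authors normalized by size factors served for gene names, and their fold changes and p-values were not used.

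Groups were compared 3 against 3 in R 4.3.3 with edgeR 4.0.16 (filterByExpr defaults, TMM factors, quasi-likelihood F test, Benjamini-Hochberg adjustment). The fits were tested on simulated data. Library totals of 28056929 to 62205366 counts set the precision, and intervals of single counts cover counting error only. The alternatives were RLE and upper-quartile factors, other filters, DESeq2 1.42.0, limma 3.58.1 with voom, a blocked fit by replicate number, a joint fit of all 9 libraries, and libraries left out. Overlap of groups by library totals and TPM, levels by transcript words, and list counts in the blocked fit were added after the data had been seen. Deviations of same-numbered libraries correlated at 0.167, 0.368 and 0.433 between the compounds, all over 0.1. Those libraries were therefore treated as paired, though the labels give replicate numbers and state no pairing. Replicate 3 stood apart in both compound groups, and its part in these correlations was not tested. For HBC530 against DMSO the correlations were 0.0871, 0.0127 and 0.172. The members and gene lists were chosen with earlier results of these data known. Named genes are the ligands, ATF4, RBM4, up to 4 called genes per list and comparison, the genes next to ULBP1 and the 6 closest to it in pattern. Promoter sequences are from RefSeq (GRCh38.p14). The result of 1 listed gene is not reported here.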

Additional observations from a re-analysis of the deposited data

How the results depend on the processing

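The log2 fold change of ULBP1 was above 0 under every alternative, from 1.45 to 1.79 (14 alternatives) for MsOc3HBC against DMSO, 0.38 to 0.71 (14) for HBC530 against DMSO and 0.89 to 1.23 (15) between the compounds. For MsOc3HBC against DMSO, 1 of the 5 ligands was called, and 0 to 1 with single libraries left out. Between the compounds 0 were called, but 1 without a filter on low counts, 1 with the replicate block and 1 without replicate 3 of both compounds. That 1 was always ULBP1, which was chosen on the MsOc3HBC libraries, so these counts are a description and no test of it, and of the other 4 ligands 0 were called under these alternatives. The protein identity between ligands that had been planned was not run. The replicate block changed no call of the 5 ligands against DMSO, where same-numbered libraries were not treated as paired. The count of all called genes for MsOc3HBC against DMSO, 27, was 6 to 76 with 1 library left out, 133 with DESeq2, 149 with the block and 250 without a filter. For HBC530 against DMSO, 3, it was 2 to 6, 20, 16 and 52, with 5 in the fit of all 9 libraries and with limma-voom, and between the compounds, 0, it was 0, 24, 1990 and 12, with 4 in the fit of all 9 libraries and 1635 without replicate 3 of both compounds. Of the 26 ATF4 targets, 9 were called for MsOc3HBC, 4 to 14 with 1 library left out and 16 with DESeq2, with the block or without a filter. For HBC530 against DMSO, 2, the counts were 1 to 2, 2, 3 and 7, and ATF3 lost its call in 5 of 6 fits with 1 library left out.

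Signs turned only for uncalled genes near 0. With 1 library left out the log2 fold change spanned -0.11 to 0.046 for MICA and -0.20 to 0.017 for ULBP3 in HBC530 against DMSO, -0.0094 to 0.068 for MICB in MsOc3HBC against DMSO, and -0.13 to 0.035 for MICA and -0.040 to 0.14 for ULBP2 between the compounds. RAET1G spanned -0.27 to 0.040 with HBC530, -0.15 to 0.16 with MsOc3HBC and -0.012 to 0.21 between the compounds. RAET1G also turned for MsOc3HBC against DMSO with upper-quartile factors (0.018) and with the replicate block (0.035). Without replicate 3 of both compounds the difference between them was 0.015 for MICA, -0.098 for ULBP2 and -0.039 for RAET1G. The cause was not tested. The counts of ULBP1, 30 to 148 per library, limit its precision. The list of ATF4 targets gave medians of 0.47 to 0.56 for MsOc3HBC against DMSO.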
